A study of Mus musculus with 6 samples.

Results

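Tetrahydrobiopterin (BH4) is a cofactor that cells make from GTP, and the 8 genes described here make it, recycle it or limit its synthesis. They are Gch1, Pts and Spr for synthesis, Akr1b3 and Cbr1 for side routes of the last reductions, Qdpr and Pcbd2 for recycling, and Gchfr for regulation. The members were listed by name for their place in the pathway of the targeted gene and found by Ensembl identifier, without its version, in the GENCODE M21 mouse annotation. All 8 were among the 12327 genes of the table, and all 8 passed the filter on low values that left 12222 genes for the test.

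The libraries came from BV2 cells, an immortalised mouse microglial line grown in high-glucose medium with serum. In the knockdown group (labelled GCH1-KD and Ad-shGCH1, n = 3) the cells had been infected for 48 hours with an adenovirus whose name points to a short hairpin RNA against GCH1. The control group (labelled negative control and Ad-NC, n = 3) came from the same subline. The name Ad-NC points to a control adenovirus, but the labels mention infection for the knockdown group alone and the series calls the comparison group wild type, so it cannot be told whether the controls received a virus. Neither the hairpin's sequence nor separate cultures for the 3 libraries of a group are given, so a p-value here rests on library-to-library spread that may be purely technical. A single cell line with a single hairpin name stands behind the comparison, which asked how the transcriptome differs when GCH1 is knocked down.

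GTP cyclohydrolase I, the product of Gch1, turns GTP into dihydroneopterin triphosphate and is the rate-limiting step of BH4 synthesis. The enzymes PTS and SPR complete the cofactor, and aldo-keto and carbonyl reductases can stand in for steps of SPR. Nitric oxide synthases and the aromatic amino acid hydroxylases use BH4, and the carbinolamine dehydratases and dihydropteridine reductase (QDPR) return the used pterin to BH4. In microglia and macrophages BH4 is best known as the cofactor of inducible nitric oxide synthase.

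Levels are FPKM (fragments per kilobase of transcript, scaled to library size), a unit read from the values because the table names none. Summed over genes the libraries held 224291 to 230292 FPKM. The step between possible values corresponds to 5.25 to 5.58 gigabases of aligned sequence in the controls. In the knockdown libraries it corresponds to 6.32 to 7.61 gigabases. Depth was sought for each library by itself within a fixed window, so each estimate holds only up to a whole multiple. If that multiple is the same in all libraries, the groups did not overlap in estimated depth. FPKM is divided by depth, and the part of depth in the results was not tested. Of 13 microglial markers, 11 were in the table, with a summed level of 1038 to 1060 FPKM in the controls and 992 to 1052 FPKM in the knockdown libraries. P2ry12 and C1qa, defining markers of microglia in tissue, were not among the genes analysed here, and Tmem119 and Cx3cr1 were low (0.489 to 0.689 FPKM for Tmem119, and for Cx3cr1 at most 0.597 FPKM in 5 libraries and 3.16 FPKM in control 3).

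Of the 8 members, the 2 that passed the test were lower after knockdown: Gch1, the targeted gene, and Qdpr, the reductase that recycles BH4. The later synthesis genes Pts and Spr, the side-route reductases Akr1b3 and Cbr1, the recycling gene Pcbd2 and the regulator Gchfr did not pass. A gene passed at a Benjamini-Hochberg (BH) adjusted p under 0.05 in limma, fitted over all 12222 genes on log2(FPKM + 1). By that rule 0.0818% of all genes tested passed in either direction and 0.0573% passed lower. Gch1 is lower by the design of the experiment, which leaves 1 of the other 7 members. Groups without overlap were found for the same 2 of 8 members, against 18.4% of all genes (8.36% with the knockdown libraries lower), and an unadjusted p under 0.05 for these 2, against 11.3% of all genes. The median log2 fold change (knockdown minus control, as everywhere below) was -0.01 over the 8 members and 0.01 over all genes tested. In RNA from whole cultures, fewer cells expressing a gene and less RNA per cell cannot be told apart.

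**Figure D1:**
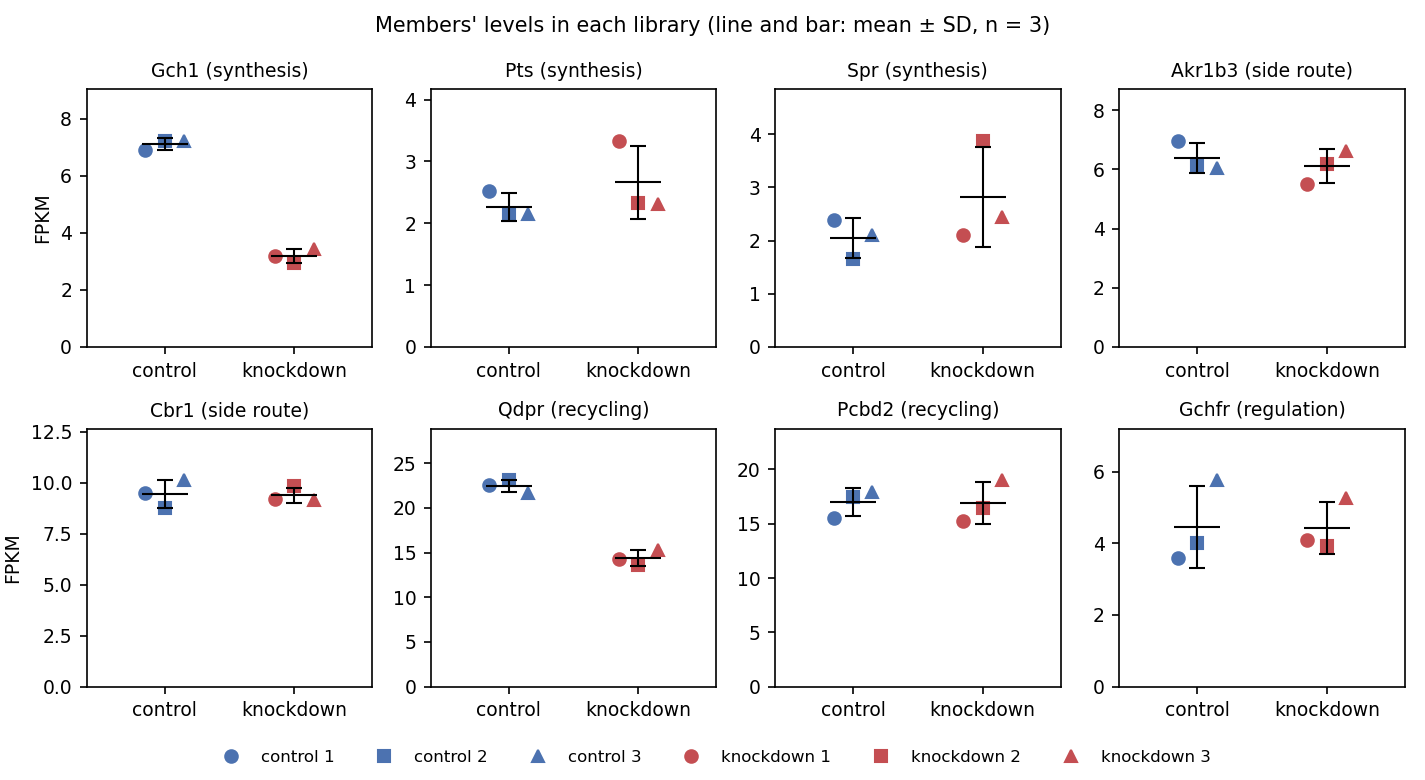
Level of each member in FPKM (vertical axes, starting at 0) in the 3 control libraries (blue) and the 3 knockdown libraries (red), with marker shapes for the library number and the mean ± SD. The 3 knockdown libraries lie below the 3 controls for Gch1 (2.93 to 3.43 against 6.89 to 7.23 FPKM) and Qdpr (13.6 to 15.3 against 21.7 to 23.1 FPKM), and the groups overlap for the other 6 members.

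Gch1 (ENSMUSG00000037580.10) lies on chromosome 14 of GRCm38, from 47153895 to 47189413 on the minus strand, and its longest coding transcript has 6 exons and 2775 bases. It was at 6.89, 7.22 and 7.23 FPKM in control libraries 1 to 3 and at 3.20, 2.93 and 3.43 FPKM in knockdown libraries 1 to 3. Every knockdown library was thus below every control, as the labels call for. The means were 7.12 ± 0.20 and 3.19 ± 0.25 FPKM (SD, n = 3 each), so that 44.8% of the control level was left. Its log2 fold change was -0.96 (95% interval -1.10 to -0.81, SE 0.06), with a limma BH adjusted p of 0.00542, the second smallest p among all genes. The 1 added to FPKM draws a fold change toward 0, more so at low levels, and with 0.1 added instead Gch1 was at -1.14. An exact permutation test (two-sided) gave p = 0.1, which is the floor for 3 libraries against 3. Leaving out any 1 library kept the call, and the log2 fold change closest to 0 was then -0.91.

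Qdpr (ENSMUSG00000015806.12) encodes dihydropteridine reductase, which regenerates BH4 with NADH after the cofactor has been used. The gene lies on chromosome 5, from 45434021 to 45450236 on the minus strand, with 7 exons and 1380 bases in its longest coding transcript. Its level was 22.6, 23.1 and 21.7 FPKM in the controls and 14.3, 13.6 and 15.3 FPKM in the knockdown libraries. The groups were again apart, and in both genes knockdown 2 was the lowest library and knockdown 3 the highest of the knockdown group, whereas the order among the controls differed between the genes. Mean Qdpr was 64.1% of control (22.4 ± 0.72 and 14.4 ± 0.88 FPKM, SD, n = 3 each). Its log2 fold change was -0.61 (95% interval -0.73 to -0.48, SE 0.05; limma BH adjusted p = 0.0131; rank 7 of all genes by p). The call was lost at a limma BH adjusted p of 0.0513 without control 1, 0.0765 without knockdown 1 and 0.0539 without knockdown 2, while the log2 fold change stayed between -0.65 and -0.57 in the 6 fits that left out 1 library. An antisense gene, Gm42413, overlaps Qdpr on the opposite strand, and a search of both strands matched 200 bases of it to the Qdpr transcript at 100% identity. Antisense genes also overlap Akr1b3 (Gm14546) and Pcbd2 (4930451E10Rik), and the processed pseudogenes Gm49134 and Gm18811 overlap Gch1. None of these was among the genes analysed here, and the labels do not say whether reads were counted by strand.

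The promoters of the 2 members that passed are shown so that their motifs can be compared. Gch1 is lower by the design of the experiment, and a part of the promoters in either difference was not tested. RefSeq start sites on GRCm38.p6 matched 7 of the 8 members, and each stretch runs from 250 bases before to 50 bases after the start, 5′ to 3′ on the strand of the gene. Capitals mark the CCAAT box (CCAAT or ATTGG), the GC box (GGGCGG or CCGCCC), the core of the cyclic AMP response element (TGACG or CGTCA) and the TATA word (TATAAA or TTTATA), each searched on both strands.
Gch1, chr14:47189364-47189663, minus strand: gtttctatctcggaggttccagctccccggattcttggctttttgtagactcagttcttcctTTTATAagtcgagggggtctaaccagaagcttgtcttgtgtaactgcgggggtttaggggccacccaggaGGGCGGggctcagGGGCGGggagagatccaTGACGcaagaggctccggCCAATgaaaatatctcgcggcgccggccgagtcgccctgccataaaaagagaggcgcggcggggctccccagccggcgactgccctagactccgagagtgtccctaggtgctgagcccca
Qdpr, chr5:45450180-45450479, minus strand: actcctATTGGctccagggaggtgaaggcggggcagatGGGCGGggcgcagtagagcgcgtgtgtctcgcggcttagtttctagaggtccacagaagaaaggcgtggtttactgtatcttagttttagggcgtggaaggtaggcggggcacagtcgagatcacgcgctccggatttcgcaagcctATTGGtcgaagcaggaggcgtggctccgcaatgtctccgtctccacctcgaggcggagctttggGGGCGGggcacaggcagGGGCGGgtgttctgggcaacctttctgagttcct

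In the Gch1 promoter a CCAAT box begins 70 bases before the start site, 2 GC boxes begin 118 and 105 bases before it, and the core of the cyclic AMP response element begins 88 bases before it. The TATA word of Gch1 is in reverse orientation and begins 188 bases before the start. The Qdpr promoter has 3 GC boxes, which begin 212 bases before the start, 1 base before it and 16 bases after it. It has 2 CCAAT boxes in reverse orientation, which begin 244 and 65 bases before the start, but no match to the TGACG core. A CCAAT box is thus found at a similar distance in both, 70 and 65 bases before the start, in opposite orientations. None of the marked motifs overlaps another. Of 32851 RefSeq promoters of 300 bases, 37.4% hold a CCAAT box, 35.7% a GC box, 20.8% the TGACG core and 13.6% the TATA word, so each of these is common. These shares count a match anywhere in the window. The full palindromic element TGACGTCA, which contains the core, is in 1.79% of all promoters and in none of the 7 members'. Among the other members with a promoter sequence, Gchfr and Cbr1 also have a CCAAT box, Pts, Spr and Gchfr have a GC box, and Pcbd2 has the TGACG core. The CCAAT box of Gchfr, which did not pass, begins 47 bases before the start in reverse orientation. That of Cbr1 begins 19 bases after the start. GC content was 60.3% for the Gch1 promoter and 60.7% for that of Qdpr, against a median of 52.7% over all promoters. These matches are letters in a window and say nothing of binding.

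The transcripts of Gch1 and Qdpr were also compared base by base. The longest run of identical bases on the same strand was 11, and the median of the same measure between Gch1 and 12194 tested genes was 12 bases. Transcripts of the other 6 members shared 9 to 11 bases with Gch1. The measure grows with transcript length.

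Pts and Spr carry out the steps after GTP cyclohydrolase, and their levels were low and variable. Pts (6-pyruvoyl-tetrahydropterin synthase; ENSMUSG00000032067.6; chromosome 9, 50521617 to 50528724, minus strand) measured 2.53, 2.13 and 2.15 FPKM in the controls and at 3.34, 2.33 and 2.31 FPKM after knockdown. Library 1 was the highest of its group in both, and only knockdown 1 exceeded all controls. Its log2 fold change was 0.15 (95% interval -0.12 to 0.43; limma BH adjusted p = 0.641), and without knockdown 1 it was 0.025. Spr (sepiapterin reductase; ENSMUSG00000033735.9; chromosome 6, 85130176 to 85137766, minus strand) measured 2.40, 1.65 and 2.11 FPKM in the controls and at 2.10, 3.88 and 2.45 FPKM after knockdown. Knockdown 2 stood above the rest, with knockdown 1 inside the range of the controls. The log2 fold change of Spr was 0.30 (95% interval -0.11 to 0.71; limma BH adjusted p = 0.54), and without knockdown 2 it was 0.11. On the scale of FPKM + 1 the interval of Spr reaches a difference as large as that of Qdpr in the opposite direction. That scale shrinks the lower Spr more: with 0.1 added instead of 1, Spr was at 0.40 and Qdpr at -0.64.

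Akr1b3 and Cbr1 encode an aldose reductase and a carbonyl reductase of broad specificity, which can reduce intermediates of BH4 synthesis in place of SPR. Akr1b3 (ENSMUSG00000001642.18; chromosome 6, 34302434 to 34317478, minus strand) measured 6.97, 6.16 and 6.03 FPKM in the controls and at 5.49, 6.18 and 6.63 FPKM after knockdown, with overlapping groups. Its log2 fold change was -0.06 (95% interval -0.24 to 0.13; limma BH adjusted p = 0.804). Cbr1 (ENSMUSG00000051483.8; chromosome 16, 93605853 to 93610505, plus strand) was at 9.49, 8.75 and 10.1 FPKM in the controls. Its knockdown values of 9.21, 9.82 and 9.15 FPKM all lay inside that range. The log2 fold change of Cbr1 was -0.01 (95% interval -0.15 to 0.14; limma BH adjusted p = 0.976), the narrowest interval among the 6 members that did not pass. The level of Akr1b3 is uncertain in one respect: 7 other annotated genes, most of them processed pseudogenes, match its transcript at 90% identity or more over at least 200 bases, and reads could be divided among them. Cbr1 has 1 such copy, Gm5678, and no such match was found for Gch1, Pts, Spr, Pcbd2 or Gchfr. None of these copies was among the genes analysed here.

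Pcbd2 and Gchfr complete the set. Pcbd2 (a pterin-4a-carbinolamine dehydratase of the recycling step, related to the transcriptional cofactor Pcbd1; ENSMUSG00000021496.12; chromosome 13, 55727368 to 55776830, plus strand) was at 15.5, 17.5 and 17.9 FPKM in the controls. In the knockdown libraries it was at 15.2, 16.5 and 19.0 FPKM, with library 1 lowest and library 3 highest in both groups. Its log2 fold change was -0.01 (95% interval -0.21 to 0.20; limma BH adjusted p = 0.98). Gchfr (the feedback regulatory protein that binds GTP cyclohydrolase and mediates its inhibition by BH4; ENSMUSG00000046814.3; chromosome 2, 119167773 to 119172390, plus strand) was at 3.60, 4.02 and 5.76 FPKM in the controls. Its knockdown values were 4.09, 3.92 and 5.26 FPKM, so library 3 was the highest of either group. The log2 fold change of Gchfr was 0.00 (95% interval -0.37 to 0.37; limma BH adjusted p = 0.996). Its interval is wide, and a difference of up to 0.37 in either direction lies within it.

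**Figure D2:**
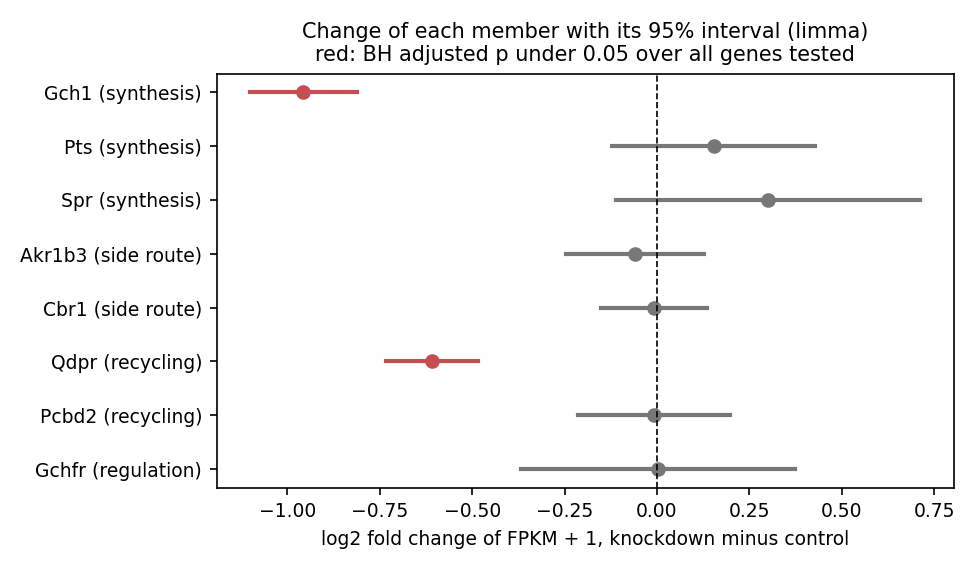
Log2 fold change of each member on the scale of FPKM + 1 (horizontal axis, knockdown minus control) with its 95% interval from limma, by role in the pathway. The intervals of Gch1 (-1.10 to -0.81) and Qdpr (-0.73 to -0.48) lie below 0 and the other 6 include 0, with the widest for Spr (-0.11 to 0.71).

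Members differed in how far the libraries of a group lay apart. The coefficient of variation (SD as a share of the mean) of Gch1 was 2.75% in the controls and 7.97% after knockdown, and that of Qdpr 3.20% and 6.11%. For Spr it was 18.3% and 33.5%, for Gchfr 25.7% and 16.5%, and for Pts 9.94% and 22.1%. Akr1b3, Cbr1 and Pcbd2 ranged from 3.94% to 11.3%. Gchfr is the member with 1 annotated transcript, a short one of 645 bases. Its value corresponds to 12945 to 21463 aligned bases per library by the depth estimate, which holds only up to a whole multiple.

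**Figure D3:**
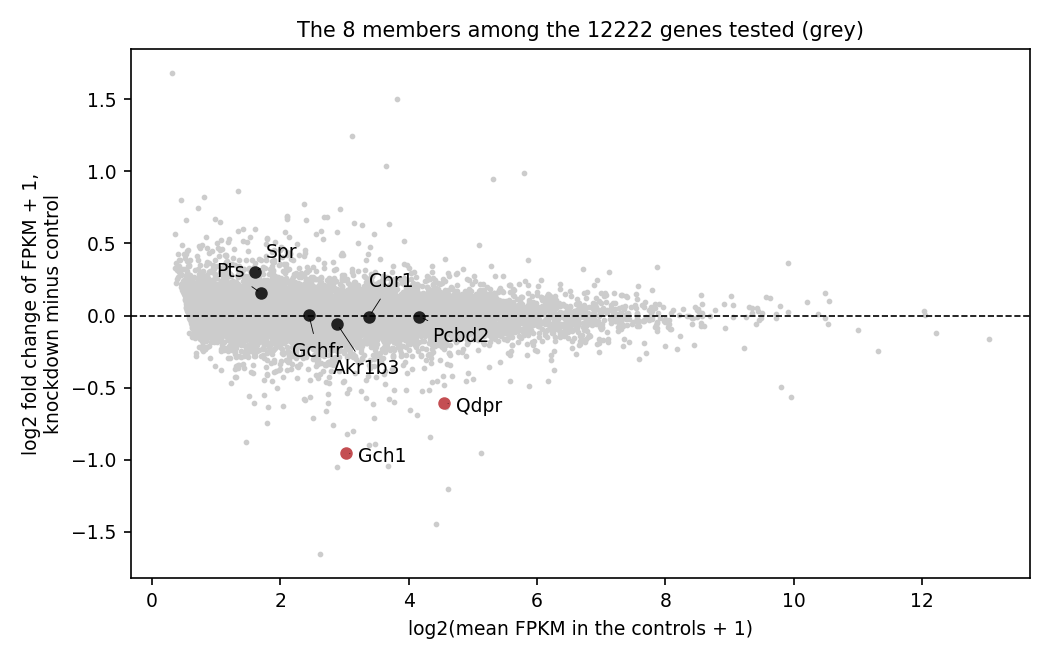
Log2 fold change on the scale of FPKM + 1 (vertical axis) against log2 of the mean control level plus 1 (horizontal axis) for the 12222 genes tested (grey), with the 8 members marked (red where the adjusted p was under 0.05). Gch1 at -0.96 and Qdpr at -0.61 lie below the bulk of genes of their level, and the other 6 members lie within it.

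Because FPKM is a level per length, members can be ordered. In the controls Qdpr was highest (22.4 FPKM), followed by Pcbd2 (17.0), Cbr1 (9.45), Gch1 (7.12), Akr1b3 (6.39), Gchfr (4.46), Pts (2.27) and Spr (2.05). In this order the libraries overlapped between Gch1 and Akr1b3 and between Pts and Spr, and not between the other neighbours. Qdpr was above 84.9% and Spr above 20.4% of the genes tested in the controls. After knockdown Pcbd2 was highest (16.9 FPKM), ahead of Qdpr (14.4), with overlap between them. Cbr1, Akr1b3 and Gchfr came next, and Gch1 (3.19 FPKM) was below Gchfr and overlapped with Spr (2.81), which overlapped with Pts (2.66). Gch1 thus moved from the fourth to the sixth place and Qdpr from the first to the second.

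Ratios between members within a library do not depend on how libraries are scaled, and 6 were compared by two-sided exact permutation over the 6 libraries. The FPKM of the enzyme gene over that of its regulator, Gch1/Gchfr, was 1.91, 1.80 and 1.26 in the controls and 0.783, 0.746 and 0.652 after knockdown. In FPKM, Gch1 was therefore the higher of this pair in each control and the lower in each knockdown library. Their transcripts differ in length (2775 and 645 bases), and a ratio of 1 in FPKM need not mean equal numbers of transcripts. Gch1/Pts was 2.72 to 3.38 in the controls and 0.959 to 1.49 after knockdown, and Gch1/Spr was 2.88 to 4.38 and 0.754 to 1.52. The level of Gch1 was thus nearer to those of Pts and Spr after knockdown. Gch1/Qdpr was 0.305, 0.313 and 0.334 in the controls and 0.224, 0.216 and 0.224 after knockdown, so the ratio was lower in each knockdown library than in every control (log2 difference -0.52). In all 4 of these and in Akr1b3/Spr (2.86 to 3.73 and 1.59 to 2.71) the groups did not overlap, with an exact permutation p of 0.1, the smallest possible, and a BH adjusted p of 0.12 over the 6 ratios. Cbr1/Spr overlapped (3.96 to 5.30 and 2.53 to 4.37; exact p = 0.2). The ratios share members and are not independent of each other. The 4 ratios with Gch1 hold the targeted gene, which is lower by design, so their lower values are not a result apart from the knockdown.

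**Figure D4:**
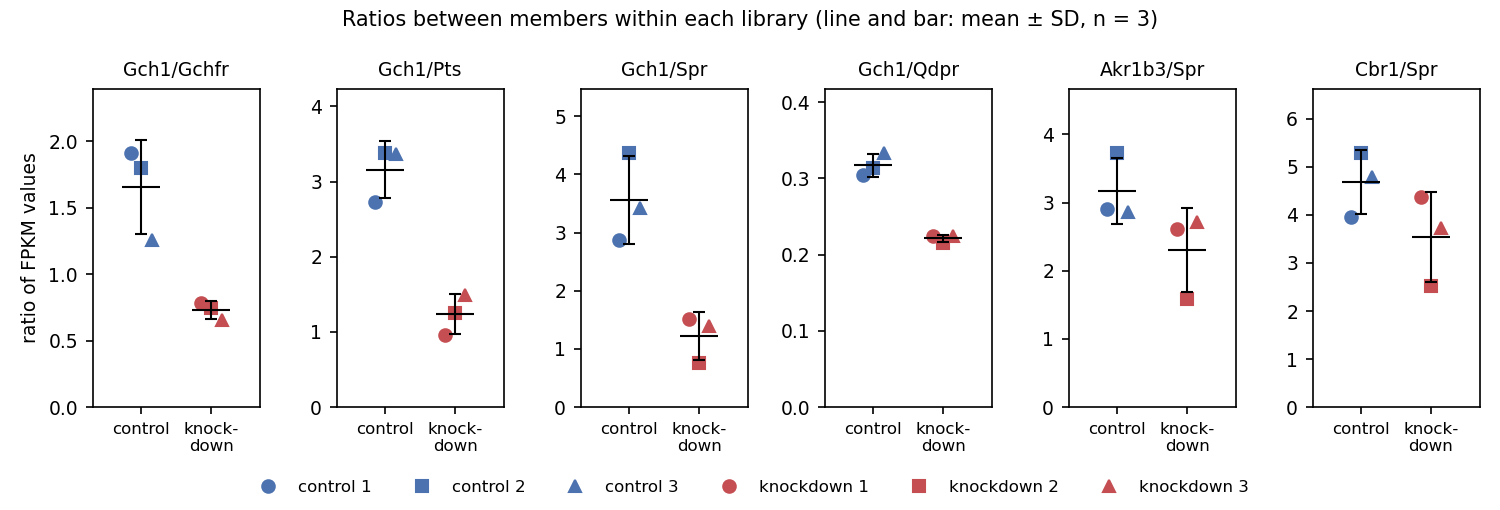
Ratio of the FPKM values of 2 genes within each library (vertical axes, starting at 0) for the 6 ratios compared, with controls in blue, knockdown libraries in red and the mean ± SD. Gch1/Gchfr is above 1 in every control (1.26 to 1.91) and below 1 in every knockdown library (0.652 to 0.783), and only Cbr1/Spr overlaps between the groups.

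Other genes of BH4 metabolism and relatives of the side-route reductases were not called. Of 7 listed, 5 were in the table and 0 passed, against 0.0818% of all genes tested. Of the 5, 4 were above and 1 below control, where 6476 of the 12222 genes tested were above. The side of the smallest differences depended on the scaling, as Akr1b10 was below control (-0.0043) with median-of-ratios scaling. The aldo-keto reductase Akr1b8, at a higher level than Akr1b3, was at 30.9, 30.0 and 29.5 FPKM in the controls and at 26.2, 27.7 and 28.3 FPKM after knockdown, with no overlap (log2 -0.13; limma BH adjusted p = 0.358). Carbonyl reductase Cbr2 was at 12.5 to 14.1 FPKM and 13.8 to 16.8 FPKM (log2 0.22; adjusted p = 0.38). Akr1b7 was at a log2 fold change of 0.09 and Akr1b10 at 0.00, with adjusted p of 0.797 and 0.99, and without control 3 Akr1b7 was at -0.047. Pcbd1 and Cbr3 were not analysed here.

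Among the enzymes that use BH4, 2 of the 9 genes listed could be tested and neither passed, against 0.0818% of all genes tested. Inducible nitric oxide synthase Nos2 was at 1.12, 0.900 and 0.901 FPKM in the controls and at 1.75, 1.16 and 1.37 FPKM after knockdown, without overlap (log2 0.29, 95% interval 0.05 to 0.53; limma BH adjusted p = 0.376). Neuronal nitric oxide synthase Nos1 was at 1.53 to 2.30 FPKM and 1.49 to 1.59 FPKM (log2 -0.20; adjusted p = 0.5). The log2 fold change of Nos1 was -0.11 without control 1 and -0.30 without control 3, and that of Nos2 was 0.49 with a pseudocount of 0.1. The chaperone gene of the aromatic amino acid hydroxylases, Dnajc12, was at 0.438 to 0.663 FPKM and did not enter the test. Nos3, Agmo and the hydroxylase genes Th, Tph1 and Tph2 were not analysed here.

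Molybdopterin is the other pterin cofactor made from GTP. Of its 7 genes tested 0 passed, against 0.0818% of all genes tested (median log2 fold change -0.03, 3 above control and 4 below it). Mocs1, which starts that pathway from GTP, was at 5.80, 5.63 and 5.86 FPKM in the controls and at 3.82, 3.63 and 4.26 FPKM after knockdown, so the groups did not overlap. Its log2 fold change was -0.47 (95% interval -0.61 to -0.32; limma BH adjusted p = 0.107, and 0.066 to 0.371 over its alternatives). Mocs2, of the following step, was at a log2 fold change of 0.07, and the sulfurase gene Mocos at -0.05, with adjusted p of 0.673 and 0.716. Mocs2 was at 0.036 without control 3 and 0.022 with the GC and length trend removed, and Mocos at -0.026 without control 3 and -0.018 without knockdown 2.

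In the remaining pathway lists 0 genes passed. Only 0.0818% of all genes tested passed, so a count of 0 in lists this short says little about the pathways. The 9 genes of GTP supply had a median log2 fold change of 0.00 (5 above control and 4 below it), with the purine salvage gene Hprt at 0.10, the nucleoside diphosphate kinase Nme2 at 0.13 and the IMP dehydrogenase Impdh1 at -0.06. Differences this small moved with single libraries: Nme2 was at 0.25 without control 1, 0.034 without control 2, 0.067 without knockdown 2 and 0.22 without knockdown 3. Hprt was at 0.16 without control 2 and 0.050 without control 3 (0.019 with the GC and length trend removed). Impdh1 was at -0.026 without control 2, -0.10 without control 3 and -0.024 without knockdown 1 or with that trend removed. The 10 folate genes had 5 above and 5 below control (median 0.00), with the mitochondrial formyltetrahydrofolate dehydrogenase Aldh1l2 at 0.25 (9.45 to 9.51 FPKM in the controls and 10.8 to 11.9 FPKM after knockdown; limma BH adjusted p = 0.24), methionine synthase Mtr at 0.09 and Mthfd1 at -0.07. Mtr was at 0.056 without control 1, and Mthfd1 at -0.041 without knockdown 1. Of 17 inducers and partners of GCH1, 9 were above and 8 below control (median 0.01). The transcription factor Cebpb was at -0.18 (105 to 109 FPKM and 89.0 to 98.0 FPKM; adjusted p = 0.291), the interferon receptor gene Ifngr1 at 0.10 and the kinase gene Jak2 at -0.11. The 9 genes of NADPH supply had 4 above and 5 below control (median -0.01), with the isocitrate dehydrogenases Idh1 at 0.34 and Idh2 at -0.06. Idh1 was low in control 1, and without that library its log2 fold change was 0.15.

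Across the 6 libraries, the genes whose pattern was most like that of Gch1, by Pearson's r on log2(FPKM + 1) among 7069 genes with a mean of at least 5 FPKM, were Agap1, Ccnd1, Arhgap39, Qdpr and Jak3, with r from 0.993 to 0.995. For Qdpr they were Gch1 (0.994), Agap1, Fosl1, Cmtm3 and Tmem230 (0.988 to 0.991). Each of the 2 members was thus in the other's list of 5. Points in such a correlation share the library, and the gap between the groups enters r whatever its size: Agap1 was at 7.03 ± 0.04 and 6.22 ± 0.03 FPKM (SD, n = 3 each; log2 -0.15), against -0.89 for Tmem230. Of these genes other than Gch1 and Qdpr, Tmem230 passed the test (limma BH adjusted p = 0.0074). Ccnd1 (log2 -0.26; adjusted p = 0.0718) passed when the GC and length trend was removed (0.0377) and under none of its other 16 alternatives.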

How the data were processed

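The authors deposited FPKM values that they had made per gene and library, a unit inferred from the values because none is named. HISAT2, StringTie and edgeR are named, per the submitters' processing notes, without versions or roles; these notes name the human build hg38, while every identifier is a mouse gene. Identifiers were matched to GENCODE M21 (GRCm38) without their version (12300 of 12327). Groups come from the genotype label.

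limma 3.58.1 in R 4.3.3, with a mean-variance trend and no covariate, was fitted on log2(FPKM + 1) to 12222 genes (those reaching 0.5 FPKM in 3 libraries or more), after it was tested on simulated data. With 200 genes changed, it found 68% of log2 changes of 0.5, and 6.16% of the genes called were false. That simulation used normal noise with a spread smoothed over level, so real genes with more spread may be missed more often. Copies were sought with blastn 2.17.0, and depth was estimated from the step of FPKM times length in 300 weakly expressed genes per library with 1 transcript (63.3% to 68.0% within 0.1 of a whole step, 20% by chance). Python 3.11.15 with scipy 1.17.1 was used for the rest.

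Described are all members, the measured genes of the lists of other BH4 genes and BH4-dependent enzymes, the 3 smallest p of each other list and the 5 genes most like Gch1 and Qdpr; the counts of the lists cover a few genes that are not reported here. The members, lists and alternatives were chosen with earlier results of these data known. Alternatives were 2 other scalings, 2 filters, 2 pseudocounts, 2 kinds of moderation, removal of GC and length trends, a replicate block and each library left out. Of the markers of other cell types, the astrocyte list had Aldoc, the oligodendrocyte list Cnp and the endothelial list Vwf and Flt1 in the table. The fibroblast list had Acta2, the lymphocyte list Lck and the neuron list none. Of these markers 0 passed, against 0.0818% of all genes tested.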

Additional observations from a re-analysis of the deposited data

How the results depend on the processing

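The fold changes of Gch1 and Qdpr kept their direction under all 17 alternatives, and their calls under 15 and 12. The replicate numbers in the titles were tried as a block: 0 genes and 0 members then passed limma (1330 genes at an unadjusted p under 0.05), with Gch1 at -0.96 (adjusted p = 0.0604), Qdpr at -0.61 (0.133) and Tmem230 at -0.89. With the block and the GC and length trend removed it was again 0 and 0 (1413 genes unadjusted), Gch1 at -0.96 (0.0825) and Qdpr at -0.62 (0.211). The labels do not say that numbers pair libraries. Across genes, same-numbered libraries deviated from their groups with r = 0.095, 0.059 and 0.094, in every case the best match, which only hints at pairing.

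With 1 library left out, 6 to 18 genes and 1 to 2 members passed. The count was 18 without control 2 and 6 without knockdown 2 or 3, of which 7, 3 and 5 were among the 10 reported. The log2 fold change of Qdpr ranged from -0.65 to -0.57. Of the 6 members that did not pass as reported, none passed under any alternative, and 4 changed sign around 0. With libraries left out Akr1b3 ranged from -0.11 to 0.0046, Cbr1 from -0.056 to 0.038, Pcbd2 from -0.089 to 0.060 and Gchfr from -0.11 to 0.17; among other genes Akr1b7 ranged from -0.047 to 0.16 and Akr1b10 from -0.072 to 0.070. Gchfr was at -0.0050 with median-of-ratios scaling, -0.0010 with quantile normalization and -0.0078 with the GC and length trend removed, with or without the block. Akr1b10 was at -0.0043 with median-of-ratios scaling, -0.0014 with quantile normalization and -0.017 after that removal. The 6 ratios kept their direction in all 54 comparisons, and the cause of the changes was not tested. Without knockdown 2, where Spr was highest, the log2 difference of Akr1b3/Spr went from -0.49 to -0.24. That of Cbr1/Spr then went from -0.43 to -0.20. The filter at a mean of 5 FPKM leaves out Pts, Spr and Gchfr.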

Other observations

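Some genes that bear on the pathway had 1 library far from the rest of its group; they were noticed after their values were seen. Tlr4, the lipopolysaccharide receptor whose signal induces Gch1 in macrophages, was at 6.60 FPKM in control 2 and at 1.03 to 1.54 FPKM in the other 5 libraries. Idh1 was at 14.4 FPKM in control 1 and at 21.2 to 25.4 FPKM in the others. The microglial integrin gene Itgam ranged from 7.10 to 31.1 FPKM, with low and high libraries in both groups.

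Among the members, the library numbered 3 had the highest Gch1, Pcbd2 and Gchfr of its group in both groups, although control 2 and control 3 were almost level for Gch1, and the library numbered 1 had the highest Pts. The other 4 members, Qdpr, Spr, Akr1b3 and Cbr1, were highest in libraries of different numbers in the 2 groups.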
